A study of Mus musculus with 6 samples.

Results

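The 10 genes described here encode negative regulators of ERK signalling and a transcription factor that the pathway induces. They were picked by symbol, under a rule that uses no measured value but was chosen with earlier results of these data known. They are the dual-specificity phosphatases Dusp1, Dusp4, Dusp5 and Dusp6, the Sprouty genes Spry1, Spry2 and Spry4, the Spred genes Spred1 and Spred2, and Egr1. All 10 were found among the 46095 genes of the table. Messenger RNA was measured in 3T3-L1 cells, fibroblast-like cells of mouse embryo origin that turn into fat cells in culture, harvested 8 days after differentiation and labelled adipocytes. Untreated cells (3 samples) were compared with cells given 0.125 μg/mL of flavonoids from the climbing plant Smilax glabra (3 samples). Both groups were labelled with the same cells and the same day of harvest. The labels do not say how long the flavonoids were present, whether the untreated cells received a solvent, or whether the 3 samples of a group were separate cultures. The p-values therefore rest on a spread between samples that could be technical only.

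In the ERK pathway, growth factor receptors switch on Ras, and Ras starts a relay of RAF, MEK and ERK kinases that ends in the nucleus. Active ERK induces genes within minutes, such as Egr1 and Fos, through serum response factor and its ETS-family partners. It also induces its own brakes. Dusp5 and Dusp6 proteins remove the activating phosphates of ERK, in the nucleus and the cytoplasm respectively, while Dusp1 and Dusp4 act in the nucleus on ERK and also on the JNK and p38 kinases. Sprouty and Spred proteins act higher up, at Ras and RAF. In 3T3-L1 cells ERK activity is known for its part in the early steps of fat cell differentiation.

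Promoter sequences are shown for the members with the largest estimates among those with an entry (Dusp1, which fell, and Dusp5, which was not called). Those of Dusp6 and Spry1, whose estimates lay near 0, are shown as well. The estimates of Spry2 and Spred2 lay nearer 0, and their promoters are not shown. Whether a motif goes with a change was not tested. Of the 10 members, 7 had an entry in the RefSeq promoter table (GRCm38.p6), and Dusp4, Spry4 and Egr1 had none. Each run is the 250 bases before the RefSeq start, 5′ to 3′ on the strand of the gene: chr17:26508473-26508722 on the minus strand, chr19:53528895-53529144 on the plus strand, chr10:99262981-99263230 on the plus strand and chr3:37639697-37639946 on the plus strand. Among the genes shown, the GENCODE M21 positions given below begin elsewhere for Dusp1 and Dusp5. The Dusp1 run lies inside its GENCODE span, and the Dusp5 run overlaps the first bases of its span. Capitals mark matches to the 5 motifs searched on both strands.
Dusp1: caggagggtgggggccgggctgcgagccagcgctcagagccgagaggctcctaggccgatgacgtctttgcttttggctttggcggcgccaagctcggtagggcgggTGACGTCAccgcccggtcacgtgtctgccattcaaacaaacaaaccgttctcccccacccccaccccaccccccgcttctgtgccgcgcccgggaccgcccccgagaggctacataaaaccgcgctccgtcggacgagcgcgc
Dusp5: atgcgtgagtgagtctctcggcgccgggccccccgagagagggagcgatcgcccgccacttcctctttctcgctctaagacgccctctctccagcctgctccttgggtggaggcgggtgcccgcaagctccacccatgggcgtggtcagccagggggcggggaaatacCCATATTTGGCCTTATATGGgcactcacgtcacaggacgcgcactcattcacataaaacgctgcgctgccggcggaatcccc
Dusp6: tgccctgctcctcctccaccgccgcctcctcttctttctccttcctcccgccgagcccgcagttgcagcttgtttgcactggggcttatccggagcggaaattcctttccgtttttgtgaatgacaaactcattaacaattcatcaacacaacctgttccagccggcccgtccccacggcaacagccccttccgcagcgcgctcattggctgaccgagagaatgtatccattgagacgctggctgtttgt
Spry1: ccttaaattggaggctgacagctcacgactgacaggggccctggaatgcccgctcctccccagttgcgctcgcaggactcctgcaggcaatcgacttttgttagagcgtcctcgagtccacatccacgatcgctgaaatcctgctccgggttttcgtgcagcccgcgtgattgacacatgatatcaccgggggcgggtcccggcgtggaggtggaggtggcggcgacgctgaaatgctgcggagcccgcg
The motifs were the CArG box that serum response factor binds, TGACGTCA (the cAMP response element), TGANTCA (the AP-1 element), CCGGAAGT (an ETS site) and TGATGNAA (a C/EBP-ATF composite). Dusp1 held 1 match, TGACGTCA, from 143 to 136 bases before the start. Dusp5 held 2 adjacent CArG boxes, CCATATTTGG and CCTTATATGG, which together span from 82 to 63 bases before the start. The other 5 promoters, of Dusp6, Spry1, Spry2, Spred1 and Spred2, held no match in this window. Of all 32851 promoters of that length, 1.55% held TGACGTCA, 1.47% a CArG box, 6.75% TGANTCA, 2.88% CCGGAAGT and 3.45% TGATGNAA. A match is a description of letters and not a measured site.

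The label adipocyte was checked against markers. Of 13 adipocyte markers, 5 reached a mean of 1 FPKM, Fabp4, Lpl, Pparg, Cebpa and Plin4, and limma called 0 (1 higher and 0 lower unadjusted, 0 by voom), while the other 8, with Adipoq, Plin1, Cd36, Slc2a4 and Lep among them, averaged under 1 FPKM. Adipoq, the gene of the fat cell hormone adiponectin, averaged 0.143 FPKM untreated and 0.397 FPKM treated, and Cd36, Slc2a4 and Lep were listed at or near 0. The label was thus not borne out by 8 of its 13 markers. The 13 adipocyte markers summed to 403 to 427 FPKM in untreated and 367 to 535 FPKM in treated libraries. All 11 preadipocyte and fibroblast markers were tested, and limma called 4 lower: Thy1, Dpt, Dcn and Lum. Among all tested genes 5.13% were called lower. Of the 11 markers, 10 had negative estimates, with a median log2 change of -0.46 (0 higher and 8 lower unadjusted, 4 lower by voom). The 11 markers summed to 4630 to 5449 FPKM in untreated and 3574 to 3866 FPKM in treated libraries, above the adipocyte markers in every library. Their sum moved the same way as Egr1 and Dusp1 below, and its part in the difference of Egr1 and Dusp1 was not tested. In bulk RNA, fewer cells that express a gene and less RNA per cell cannot be told apart. Of 9 macrophage and endothelial markers, Ptprc, Cdh5, Kdr and Tie1 were at 0 in all 6 libraries, and the summed level was 3.29 to 4.56 FPKM untreated and 3.17 to 3.81 FPKM treated. Between 21952064 and 26355863 fragments were recovered per library. Pairs of libraries correlated in log2 values at 0.967 to 0.989 among untreated, 0.987 to 0.995 among treated and 0.955 to 0.981 across the groups. Untreated libraries were less alike, and their values leaned in opposite ways over gene length (log2 slopes per doubling of length of -0.12 in replicate 1 and 0.16 in replicate 3, against -0.03 to 0.02 in the other 4).

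Egr1 and Dusp1 were the most abundant members and both fell with flavonoids. Dusp6 and the tested Sprouty and Spred genes were not called, with log2 changes from -0.15 (Spred1) to 0.06 (Spred2). The 95% interval of Spred1 reached -0.54, past the estimate of -0.45 for Dusp1. Levels are in FPKM, fragments scaled by gene length and by library depth, and changes are log2 differences of FPKM + 1 fitted by limma, which understates the change of low genes. Of the 9 members that averaged 1 FPKM or more over the 6 samples, 2 fell, 0 rose and 7 were not called (limma, Benjamini-Hochberg adjusted p under 0.05 over 11464 genes). Among all tested genes 5.13% fell and 4.86% rose. No member had a positive estimate with an unadjusted p under 0.05, and limma's voom on recovered fragments called 0 members higher and 2 lower. The median log2 change of the 9 members was -0.08, against -0.02 for all tested genes. In 3 of the 9, Egr1, Dusp1 and Dusp4, the 3 treated values lay apart from the 3 untreated values, as they did in 34.3% of tested genes.

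**Figure D1:**
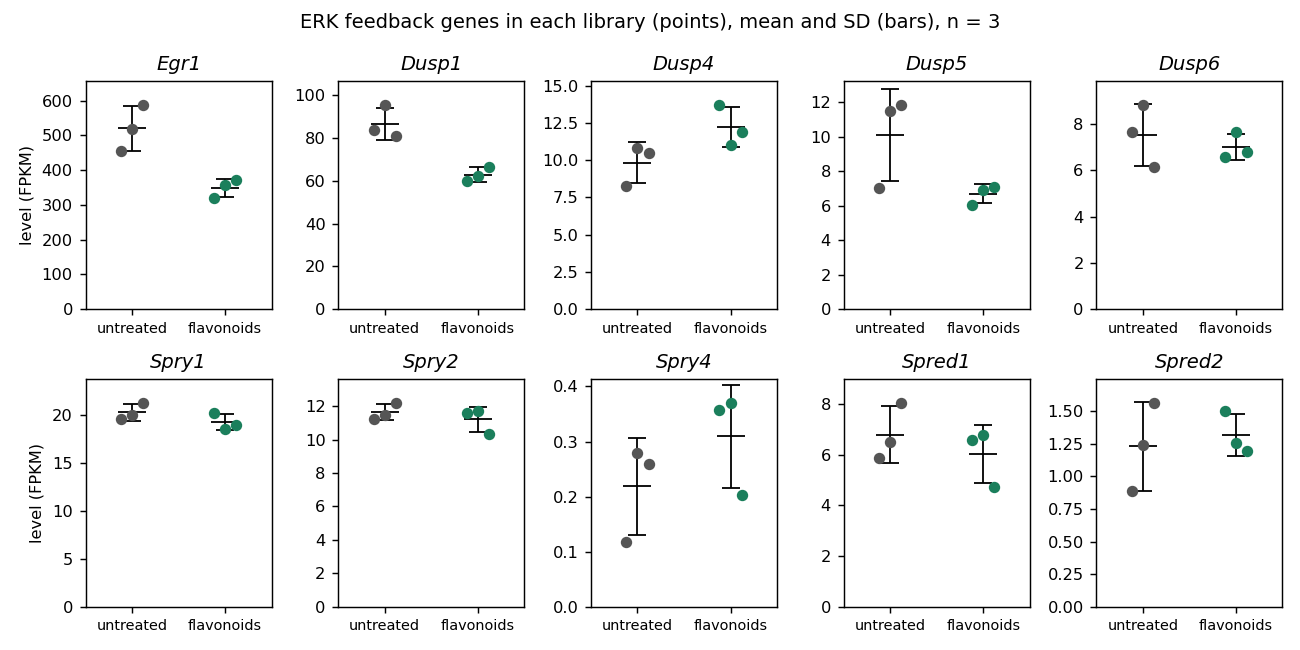
Level of each of the 10 members in FPKM (vertical axes from 0, a scale per gene) in the 3 untreated and 3 flavonoid-treated libraries, with the mean and SD as bars. The treated points of Egr1 and Dusp1 all lie below the untreated points, the Dusp4 points lie in the opposite order, and the groups of the other 7 genes overlap.

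Egr1 encodes a zinc-finger transcription factor induced within minutes of ERK activation. It measured 455, 520 and 586 FPKM in untreated replicates 1, 2 and 3 and 320, 357 and 370 FPKM in flavonoids replicates 1, 2 and 3. Every treated library was below every untreated library, and the highest treated value was 370 against the lowest untreated value of 455. The mean went from 520 ± 65.2 to 349 ± 26.1 FPKM (SD, n = 3 in each group), 33.0% lower, with a log2 change of -0.57 (standard error 0.14, adjusted p = 0.0408 in limma). Its level was above that of 98.6% of tested genes, and between 24582 and 45474 fragments were recovered per library, so counting error was small beside the spread between libraries. Egr1 lies on chromosome 18.

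Dusp1, also called MKP-1, is itself an immediate early gene and inactivates p38, JNK and ERK. It measured 83.6, 95.2 and 80.7 FPKM in untreated replicates 1, 2 and 3 and 60.1, 62.1 and 66.5 FPKM in flavonoids replicates 1, 2 and 3. The groups did not overlap, and the mean fell from 86.5 ± 7.67 to 62.9 ± 3.30 FPKM (SD, n = 3 in each group; log2 change -0.45, standard error 0.11, adjusted p = 0.0413 in limma), 27.3% lower. Dusp1 was above 89.9% of tested genes in level. It lies at chr17:26505590-26562128 on the minus strand (GENCODE M21, GRCm38, as are the other positions of genes), and 11 of its 3311 annotated exon bases are shared with Ergic1 on the opposite strand. Whether counting used strand is not given in the sources used here.

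Both calls lie close to the threshold. The log2 change of Egr1 stayed between -0.66 and -0.48 and that of Dusp1 between -0.51 and -0.38 over 19 other settings, but each gene passed the threshold in 11 of the 19. Without untreated replicate 2 the adjusted p was 0.183 for Egr1 and 0.221 for Dusp1. Without flavonoids replicates 1, 2 and 3 in turn it was 0.179, 0.139 and 0.0914 for Egr1 and 0.172, 0.156 and 0.0741 for Dusp1. Without untreated replicate 1 or 3 both calls were kept. With each library's length trend removed, the adjusted p was 0.00455 for Egr1 and 0.00749 for Dusp1, while 21.7% of all tested genes were then called.

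**Figure D2:**
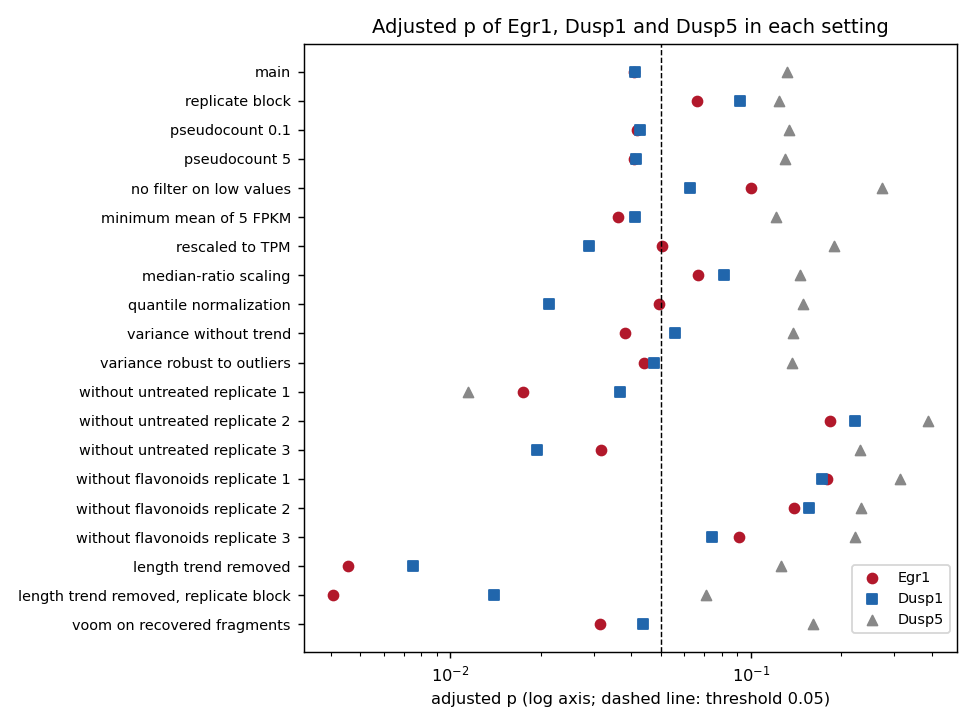
Adjusted p (log axis, threshold 0.05 dashed) of Egr1, Dusp1 and Dusp5 in the fit reported and in 19 other settings. The points of Egr1 and Dusp1 lie on either side of the line, and Dusp5 passes it only without untreated replicate 1, where its adjusted p is 0.0115.

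The other 3 phosphatase genes did not pass the test, and their estimates had different signs. Dusp5, the nuclear ERK phosphatase with the adjacent CArG boxes shown above, measured 7.01, 11.5 and 11.8 FPKM in untreated replicates 1, 2 and 3 and 6.05, 6.92 and 7.09 FPKM in flavonoids replicates 1, 2 and 3. Untreated replicate 1 was low and lay within the treated range, so the groups overlapped. The means were 10.1 ± 2.69 and 6.69 ± 0.556 FPKM (SD, n = 3 in each group; log2 change -0.50, 95% interval -0.94 to -0.07, limma adjusted p = 0.132). Without untreated replicate 1 the log2 change was -0.72 and Dusp5 was called lower (adjusted p = 0.0115). Dusp5 lies at chr19:53529109-53542431, and 547 of its 2473 exon bases are shared with an antisense gene model.

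Dusp4, a nuclear phosphatase of ERK, JNK and p38 on chromosome 8, had the opposite sign. It measured 8.24, 10.8 and 10.5 FPKM in untreated replicates 1, 2 and 3 and 13.7, 11.03 and 11.9 FPKM in flavonoids replicates 1, 2 and 3. The treated values all lay above the untreated ones, by a margin of 10.8 against 11.03 FPKM at the closest, and the difference was not called (log2 change 0.29, 95% interval -0.04 to 0.61, limma adjusted p = 0.235). Dusp4 was called in 0 of the 19 other settings.

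Dusp6, the cytoplasmic phosphatase that acts on ERK and hardly on JNK or p38, is often read as a gauge of ERK activity. It measured 7.65, 8.80 and 6.14 FPKM in untreated replicates 1, 2 and 3 and 6.59, 7.66 and 6.78 FPKM in flavonoids replicates 1, 2 and 3. The treated values lay inside the untreated range. The log2 change was -0.08, with a 95% interval of -0.42 to 0.26 (limma adjusted p = 0.765), and it was 0.024 without untreated replicate 2. The gene lies at chr10:99263231-99267489.

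Sprouty proteins restrain Ras and RAF below the receptors, and 2 of the 3 genes, Spry1 and Spry2, were the steadiest of the tested members. Spry1 (chr3:37639947-37644598) measured 19.6, 20.01 and 21.2 FPKM in untreated replicates 1, 2 and 3 and 20.2, 18.5 and 19.0 FPKM in flavonoids replicates 1, 2 and 3. Spry2 (chr14:105891947-105896819) measured 11.2, 11.5 and 12.2 FPKM untreated and 11.6, 11.7 and 10.3 FPKM treated, in the same order. The groups overlapped in both genes. Of the 2906 exon bases of Spry1, 710 are shared with the gene model Gm42922 on the opposite strand. The 95% intervals of their log2 changes were -0.31 to 0.17 for Spry1 and -0.31 to 0.21 for Spry2 (limma adjusted p = 0.710 and 0.814). The spread of Spry1 within groups was smaller than that of all but 2.53% of tested genes, and that of Spry2 smaller than all but 5.83%.

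Spry4, on chromosome 18, was the member under the minimum of 1 FPKM and was not tested. It measured 0.118, 0.279 and 0.259 FPKM in untreated replicates 1, 2 and 3 and 0.357, 0.370 and 0.202 FPKM in flavonoids replicates 1, 2 and 3. These values rest on 12 to 45 fragments per library, and the groups overlapped. Fitted without the filter on low values, Spry4 had a log2 change of 0.10 (95% interval -0.08 to 0.29, limma adjusted p = 0.567).

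Spred genes encode Sprouty-related proteins that recruit neurofibromin to Ras. Spred1 (chr2:117121374-117182279) measured 5.85, 6.48 and 8.02 FPKM in untreated replicates 1, 2 and 3 and 6.56, 6.77 and 4.73 FPKM in flavonoids replicates 1, 2 and 3. Flavonoids replicate 3 was the lowest of the 6, and the groups overlapped (log2 change -0.15, 95% interval -0.54 to 0.23, limma adjusted p = 0.604). Spred2 (chr11:19924375-20024026) measured 0.887, 1.24 and 1.56 FPKM untreated and 1.501, 1.254 and 1.20 FPKM treated, in the same order, with a log2 change of 0.06 (95% interval -0.31 to 0.43, limma adjusted p = 0.836). The untreated values bracket the treated ones.

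The low level of Spred2 depends on the length that the authors divided by. The step between its FPKM values corresponds to a gene of 21011 bases, whereas GENCODE M21 gives Spred2 4619 exon bases. Its 409 to 824 fragments per library overlap the 740 to 1281 of Spred1. If all these fragments came from the annotated exons, its means on that length would be 5.59 and 5.99 FPKM in untreated and treated cells. Which bases they came from is not known, so these means are upper limits. The ratio of implied to annotated length was between 0.47 (Dusp5) and 1.51 (Spry2) for the other 9 members. For Dusp5 the recovered fragments may be too few by a shared divisor, which leaves its FPKM and its fold change as they are. A change between groups does not depend on the length used, apart from the pseudocount and the removal of each library's length trend, which places a gene by its implied length. With that trend removed the log2 change of Spred2 was 0.31, against 0.06 without, and was not called.

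**Figure D3:**
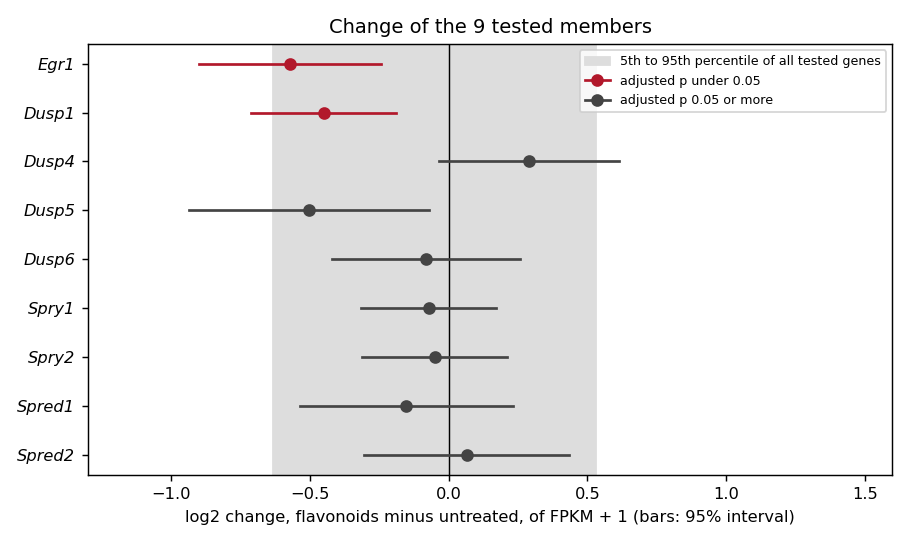
Log2 change (flavonoids minus untreated, of FPKM + 1) of the 9 tested members with 95% intervals, with the range from the 5th to the 95th percentile of all tested genes, -0.63 to 0.53, in grey. The intervals of Egr1, Dusp1 and Dusp5 lie below 0, and those of the other 6 include 0.

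The order of levels was led by Egr1, Dusp1 and Spry1 in both groups, and each of these stood apart from the next without overlap. In untreated cells the ranges of neighbours overlapped from Spry2 through Dusp5, Dusp4 and Dusp6 to Spred1, 5 genes with means from 11.6 down to 6.79 FPKM. Within libraries Dusp4 was above Dusp6 in every untreated sample, and the other neighbours among these genes changed order. In treated cells Dusp4 (12.2 FPKM) and Spry2 (11.2 FPKM) overlapped each other, as did Dusp6, Dusp5 and Spred1 at 7.01, 6.69 and 6.02 FPKM, while Spry2 lay above Dusp6 in every library. Spred2 and Spry4 were last in both groups. Levels per length across genes carry the limit given for Spred2.

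Ratios between members within a library do not depend on how the libraries are scaled. The ratio of Egr1 to Spry1 was 23.3, 26.0 and 27.6 in untreated replicates 1, 2 and 3 and 15.8, 19.2 and 19.5 in flavonoids replicates 1, 2 and 3. The ratio of Dusp1 to Spry1 was 4.28, 4.76 and 3.81 untreated and 2.98, 3.35 and 3.51 treated. Both ratios were lower in every treated library than in any untreated library. The same separation was found for the ratios of Egr1 and Dusp1 to Dusp6 and to Spry2. These 6 ratios share Egr1 or Dusp1, whose own groups already lay apart, so their separation is no further observation. The members of these pairs were taken after their values were seen, so the ratios are given with no test. The ratio of Egr1 to Dusp1 was 6.05 ± 1.04 untreated and 5.54 ± 0.210 treated (SD, n = 3 in each group), with overlapping groups.

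**Figure D4:**
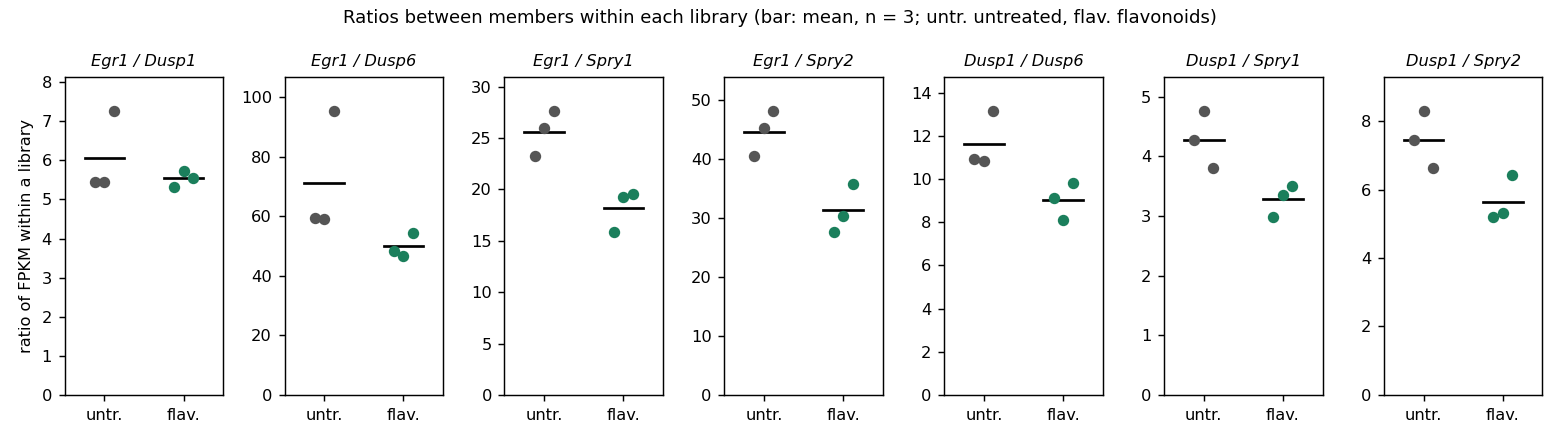
Ratio of FPKM between pairs of members within each library (vertical axes from 0, a scale per pair, bars at the mean of 3). The groups overlap for Egr1 over Dusp1 and lie apart for the other 6 pairs, with treated libraries lower.

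The rest of the pathway was read from 8 other lists of 145 genes, of which 118 were tested, 17 fell and 5 rose. Beside this, 5.13% of all tested genes fell and 4.86% rose. Of the 17 that fell, 10 were on the list of immediate early genes. Other phosphatase, Sprouty and Spred genes went both ways: of 8 tested, 2 fell and 1 rose. Dusp10, a phosphatase of p38 and JNK, measured 8.29, 8.42 and 8.79 FPKM untreated and 4.73, 4.004 and 5.09 FPKM treated in replicates 1, 2 and 3, and fell by 0.76 on the log2 scale (standard error 0.13, adjusted p = 0.0105 in limma). The groups were well apart. Dusp14 fell by 0.79, and Dusp3, a small phosphatase of ERK and JNK, rose from 1.37 ± 0.134 to 3.35 ± 0.536 FPKM. Dusp10 was called in 16 of 19 other settings, Dusp14 in 14 of 19 and Dusp3 in 15 of 18, since genes averaging under 5 FPKM had no test in the setting with that minimum. The limma adjusted p of Dusp10, Dusp14 and Dusp3 was 0.0758, 0.0964 and 0.0614 without untreated replicate 2 and 0.0571, 0.0843 and 0.0550 without flavonoids replicate 1. Without flavonoids replicate 2 it was 0.0555 for Dusp10 and 0.0550 for Dusp14.

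The kinases of the cascade gave no call. Of 18 tested RAF, MEK and ERK kinases and scaffolds, limma called 0, with 1 higher and 3 lower at an unadjusted p under 0.05, and voom called 1 higher and 1 lower. Mapk3, which encodes ERK1, measured 252 ± 28.6 and 245 ± 23.1 FPKM (SD, n = 3 in each group), and Pebp1, a RAF inhibitor, 281 ± 56.1 and 303 ± 24.6 FPKM. Of 11 tested growth factor receptors limma called 0 (0 higher and 4 lower unadjusted, and 1 lower by voom), with Pdgfra at 230 ± 45.3 and 165 ± 15.5 FPKM and Fgfr1 at 137 ± 12.9 and 143 ± 7.10 FPKM. Of 11 tested JNK and p38 pathway kinases limma called 0 (0 higher and 2 lower unadjusted, and 1 lower by voom), with Map2k3 at 33.3 ± 2.66 and 31.8 ± 1.69 FPKM and Map2k7 at 27.3 ± 3.90 and 31.7 ± 1.93 FPKM. Transcript levels say nothing of kinase activity, which was not measured.

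Among 18 tested adaptors, Ras genes and Ras regulators, Rras, a Ras relative, fell by 0.54 and Gab2, a docking protein, rose by a log2 change of 0.73. Among 12 other negative regulators, Rasa4, which switches Ras off, was at 25.02 ± 2.46 FPKM untreated and fell to 14.5 ± 1.80 FPKM (SD, n = 3 in each group), and Lrig1, which restrains growth factor receptors, rose from 14.6 ± 1.08 to 20.3 ± 1.20 FPKM. The calls of Rras and Lrig1 were made in 8 of 19 and 10 of 19 other settings, that of Gab2 in 11 of 18 and that of Rasa4 in 16 of 19. For Rras, Gab2, Rasa4 and Lrig1 the limma adjusted p was 0.175, 0.117, 0.0732 and 0.168 without untreated replicate 2, 0.162, 0.128, 0.0668 and 0.179 without flavonoids replicate 1, and 0.138, 0.0828, 0.0526 and 0.121 without flavonoids replicate 2. Without flavonoids replicate 3 it was 0.111, 0.0897 and 0.0904 for Rras, Gab2 and Lrig1, and without untreated replicate 1 it was 0.0536 and 0.0602 for Rras and Lrig1.

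Immediate early genes other than Egr1 and Dusp1 were lower in larger number, with 10 of 24 tested down and 1 up and a median log2 change of -0.42. Over all tested genes 5.13% were down and 4.86% up. Fosb, an AP-1 subunit gene, fell by 1.23, Jun by 0.91 and Klf10 by 0.88 on the log2 scale, and Myc was the gene that rose, by a log2 change of 1.29. The paralogs of Egr1, singled out after their values were seen, also fell: Egr2 from 6.28 ± 0.312 to 4.07 ± 0.620 FPKM and Egr3 from 2.02 ± 0.681 to 0.734 ± 0.148 FPKM (SD, n = 3 in each group; adjusted p = 0.0449 and 0.0395 in limma). Jun, Klf10 and Myc were called in all of their 19 other settings and Fosb in 15 of 18, with an adjusted p of 0.0549 without untreated replicate 2 and 0.0587 without flavonoids replicate 1 (limma). Egr2 was called in 7 of 19 and Egr3 in 9 of 18. With each library's length trend removed Egr2 was not called (adjusted p = 0.124 in limma). Both lost their calls without untreated replicate 2 (limma adjusted p = 0.175 and 0.162), untreated replicate 3 (0.0709 and 0.0658), and flavonoids replicate 1 (0.181 and 0.150), 2 (0.0789 and 0.101) or 3 (0.101 and 0.0934). The remaining lower genes of the list, named here beyond the 4 of smallest p, were Klf2, Fos, Btg2, Ier5 and Zfp36. They were called in 15, 14, 14, 13 and 9 of 19 other settings in that order, and none was called without untreated replicate 2. Srf and Nab2 were likewise singled out after their values were seen. Srf, which encodes serum response factor, measured 16.8 ± 0.814 and 16.7 ± 0.819 FPKM, and Nab2, an Egr1 target that represses Egr proteins, 49.2 ± 0.785 and 51.1 ± 1.56 FPKM, and neither was called.

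Delayed output genes of ERK moved both ways, with 3 of 17 tested down and 1 up and a median log2 change of 0.03. The shares over all tested genes were 5.13% down and 4.86% up. Ccnd1, which encodes cyclin D1, was at 61.2 ± 4.97 FPKM untreated and fell to 37.7 ± 2.17 FPKM (SD, n = 3 in each group), Ereg by 0.67 and Elk3 by 0.49 on the log2 scale, and Plaur, the urokinase receptor gene, rose by a log2 change of 0.72. Ccnd1 was called in 16 of 19 other settings, Plaur in 13 of 19, Ereg in 10 of 18 and Elk3 in 9 of 19. For Ccnd1, Plaur, Ereg and Elk3 the limma adjusted p was 0.0800, 0.135, 0.115 and 0.198 without untreated replicate 2 and 0.0619, 0.116, 0.130 and 0.156 without flavonoids replicate 1. Without untreated replicate 3 it was 0.0661 for Ereg and 0.0694 for Elk3. Without flavonoids replicate 2 it was 0.0555, 0.0927 and 0.141 for Ccnd1, Ereg and Elk3, and without flavonoids replicate 3 it was 0.0770, 0.113 and 0.107 for Plaur, Ereg and Elk3. Below the minimum for testing, and singled out after its values were seen, the ETS factor gene Etv4 measured 0.582, 0.476 and 0.696 FPKM untreated and 0.137, 0.145 and 0.173 FPKM treated in replicates 1, 2 and 3. Etv4 was 1 of 6 genes of this list that averaged under 1 FPKM, and its difference was not tested.

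**Figure D5:**
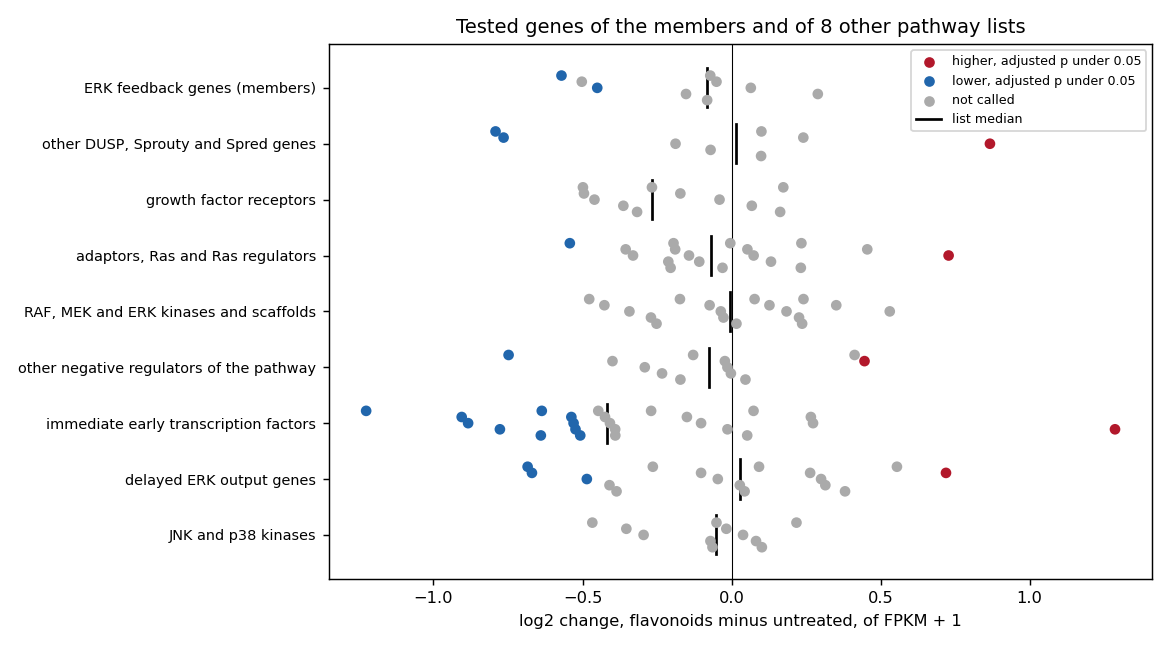
Log2 change (flavonoids minus untreated, of FPKM + 1) of each tested gene of the members and of 8 other lists of the pathway, with called genes in colour and list medians as bars. Immediate early genes lie mostly to the left, with a median of -0.42, and the medians of the members and of the RAF, MEK and ERK kinases are -0.08 and -0.01.

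The genes whose pattern over the 6 samples was most like that of Egr1 were Plod1, Fam131b and Enc1 (Pearson r of 0.998, 0.996 and 0.996 of log2 values, among 7275 named genes averaging 5 FPKM or more). For Dusp1 they were Acss2, Lfng and Racgap1 (r of 0.995, 0.991 and 0.991). These are the highest of many correlations over 6 points that fall into 2 groups, and are a description only.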

How the data were processed

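Messenger RNA of 6 samples was profiled on an Illumina HiSeq from TRIzol extracts and TruSeq libraries, per the labels' protocols. The authors deposited 1 table of FPKM values for 46095 gene symbols, with a column per sample and 0 columns unused here. The submitters' processing notes name FastQC, HISAT2 and the build mm10. Tool versions, the fragment counter, annotation and strand setting: not given in the sources used here. Whole fragments were recovered from the steps between FPKM values, within 0.005 fragments for all 22235 genes above 0. Counting error is the only error these fragments describe.

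Values entered limma 3.58.1 (R 4.3.3) as log2(FPKM + 1), without covariates and with a mean-variance trend, for the 11464 genes averaging 1 FPKM or more. Tests were two-sided, adjusted by Benjamini-Hochberg over all of them. Fragments of same-group libraries differed by a chi-square of 6.76 to 132 per degree of freedom, so none was a copy of another. The members, lists and rules were chosen with earlier results of these data known. Named are all members, the called genes of each list up to 4 of smallest p (or the 2 of highest mean where none was called; genes outside this rule are marked in the text), and the 3 genes most correlated with each called member. Other settings were a replicate block, pseudocounts 0.1 and 5, no filter or a minimum of 5 FPKM, 3 rescalings (TPM, median-ratio, quantile), 2 variance estimates, each library left out, removal of each library's trend over implied gene length (loess, span 0.5) with and without the block, and voom on recovered fragments. Promoters came from RefSeq on GRCm38.p6, the build that mm10 denotes.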

Additional observations from a re-analysis of the deposited data

How the results depend on the processing

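No setting called a member higher, and Egr1, Dusp1, Dusp4, Dusp5, Spry1 and Spred1 kept their direction in all 19. Members called lower numbered 2 in the fit reported, 0 with the replicate block, without a filter on low values and with median-ratio scaling, 1 on the TPM scale (Dusp1) and 1 without a variance trend (Egr1), and 0 to 3 when libraries were left out. Signs turned for Dusp6 without untreated replicate 2 (0.024, in a range from -0.20 with libraries left out), Spred2 without untreated replicate 1 (-0.050, range to 0.17) and Spry2 without flavonoids replicate 3 (0.0015, range from -0.081), none of them called. The cause of these moves was not tested.

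Over all tested genes, 557 higher and 588 lower calls became 220 and 237 with the replicate block, 317 and 324 without the filter, 1291 and 1202 with the length trend removed, and 1057 and 990 with that removal and the replicate block. With libraries left out they ranged from 65 to 876 higher and 81 to 833 lower. Other pathway genes, 5 higher and 17 lower, became 1 and 7 with the replicate block, 2 and 8 without the filter, and when libraries were left out 1 to 6 higher and 2 to 19 lower. Those higher were 3 at a minimum of 5 FPKM, 2 on the TPM scale, 12 with the length trend removed and 9 with that removal and the replicate block. Same-numbered samples deviated in opposite ways (correlations of -0.14, -0.12 and -0.20), so the numbers are not taken as pairs. Each sample correlated better with another number than with its own.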
